A study of Mus musculus with 3 samples.

Results

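The Hox genes of the A, B, C and D clusters were followed here in C2C12 cells, a mouse myoblast line that can be grown as dividing cells or brought to fuse into multinucleated fibres by withdrawal of serum. The members are the probes whose gene name on the array is Hox with a cluster letter and a paralog number, which gave 34 of the 23473 probes of the array, 1 probe for each gene. RefSeq lists 39 such genes in the mouse. The array carried 10 of 11 genes of the A cluster on chromosome 6, 9 of 10 of the B cluster on chromosome 11, 7 of 9 of the C cluster on chromosome 15 and 8 of 9 of the D cluster on chromosome 2. Hoxa3, Hoxb2, Hoxc4, Hoxc11 and Hoxd4 were not analysed here.

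RNA was measured on 3 arrays, 1 for each condition. Parental cells kept for 2 days in 2% horse serum, which induces differentiation, gave C2C12-DF. C2C12-W4-08 was a subline kept for 2 days in growth medium (10% fetal bovine serum), a single clone selected with blasticidin after transfection with a V5-tagged Wnt4 under a cytomegalovirus promoter. C2C12-PR was the parental line kept for the same time in the same growth medium, without a transgene or selection, and it is the reference of both comparisons. With 1 array per condition there is no replicate check and no test, so a ratio of at least 2-fold is used as a mark of size, and each count is read against the share of all probes that pass it. The array of C2C12-W4-08 came from another order of arrays than the other two, so order and condition cannot be told apart, and neither can cloning with selection and the transgene. Fewer cells with a transcript and less of it per cell cannot be told apart either.

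Hox genes encode homeodomain transcription factors that give cells their identity along the body axis. The genes stand in each cluster in the order in which they are used from head to tail, so that low paralog numbers mark anterior and high numbers mark posterior or distal positions. Genes of the same paralog number in different clusters are close relatives, and cells of adult tissues and cultured lines often keep the Hox set of the place they came from. In the limb, the posterior genes of the A and D clusters pattern the segments from shoulder to digits.

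The level of a probe is given as its normalized signal, the spot median after subtraction of the mean of 1750 blank spots, scaled to a median ratio of 1 between arrays and to a median of 25 over the probes detected in C2C12-PR. A probe was not detected where its spot lay below the blank mean plus 2 SD. Of all probes, 74.4% were detected in C2C12-DF, 92.8% in C2C12-W4-08 and 71.8% in C2C12-PR. The blank spots of C2C12-W4-08 were dimmer and less spread. The lowest signal that counted as detected was 2.35 in C2C12-DF, 0.697 in C2C12-W4-08 and 2.72 in C2C12-PR. The error given with a log2 ratio is the SD expected from the spread of repeated spots within an array, from the blank spots and 3 positive controls of 24 spots each, and it covers no variation between cultures. The control closest in brightness to the Hox probes had a CV of 21.2% in C2C12-DF, 21.5% in C2C12-W4-08 and 28.5% in C2C12-PR, above the means over the 3 controls of 12.1%, 16.5% and 16.0% that enter this error, which may therefore be too small. Signals of different probes depend on how well each probe hybridizes and are not ranked against each other.

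The labels were checked with the transgene and with cell type markers. Wnt4 had a signal of 4.63 in C2C12-DF, 115 in C2C12-W4-08 and was not detected in C2C12-PR, so that it was at least 42.2-fold higher in C2C12-W4-08. All 8 myoblast markers were detected on each array, with a summed signal of 5960 in C2C12-DF, 1620 in C2C12-W4-08 and 3420 in C2C12-PR, and 5 myotube markers summed to 8510, 222 and 186 on these arrays. For other cell types, fibroblast markers summed to 316, 80.4 and 332, adipocyte markers to 25.3, 117 and 52.9, endothelial markers to 5.09, 10.4 and 0, and leukocyte markers to 19.7, 93.6 and 24.0. The leukocyte sum was nearly all Cd68, a lysosomal protein (19.7, 92.9 and 21.3), whereas Ptprc, the pan-leukocyte gene, was not detected in C2C12-DF and had 0.697 in C2C12-W4-08 and 2.72 in C2C12-PR. The fibroblast sum was mostly Col1a1 (233, 10.6 and 203) and Twist2 (59.4, 57.6 and 124), whereas Pdgfra (14.7, 9.31 and 4.79) was lowest in C2C12-PR. Most of the adipocyte sum was Pparg (17.9, 97.2 and 48.9), and of the endothelial sum Kdr (5.09, 9.75 and not detected). Among the myoblast markers 4 were at least 2-fold lower in C2C12-W4-08 (background 11.0%), whereas Myf5 was 1.91-fold higher. Pecam1 of the endothelial markers and Adipoq of the adipocyte markers were not detected on any array. The part of these marker differences in the Hox ratios was not tested.

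Hoxa9, Hoxa10 and Hoxd1 are the members that had a signal of at least 20 in C2C12-W4-08 and were at least 2-fold higher there than in C2C12-PR, and their RefSeq promoter windows of 300 bases (mostly upstream of the start, build GRCm38.p6) are printed for that reason, with CpG dinucleotides in capitals. CpG-rich stretches are where Polycomb complexes, the known repressors of Hox clusters, are recruited in mammalian cells. The window of Hoxa9 is at chr6:52227321-52227620 on the minus strand with 4 CpGs. Those of Hoxa10 are at chr6:52234890-52235189 and chr6:52240805-52241104 on the minus strand, with 21 and 12 CpGs. That of Hoxd1 is at chr2:74762730-74763029 on the plus strand with 29 CpGs.
Hoxa9: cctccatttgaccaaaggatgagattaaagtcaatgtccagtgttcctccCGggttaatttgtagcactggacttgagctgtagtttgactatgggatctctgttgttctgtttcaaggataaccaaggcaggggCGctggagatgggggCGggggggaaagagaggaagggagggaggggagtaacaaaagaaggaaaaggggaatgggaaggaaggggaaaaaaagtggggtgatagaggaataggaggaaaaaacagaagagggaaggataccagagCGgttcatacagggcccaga
Hoxa10, start nearer to Hoxa9: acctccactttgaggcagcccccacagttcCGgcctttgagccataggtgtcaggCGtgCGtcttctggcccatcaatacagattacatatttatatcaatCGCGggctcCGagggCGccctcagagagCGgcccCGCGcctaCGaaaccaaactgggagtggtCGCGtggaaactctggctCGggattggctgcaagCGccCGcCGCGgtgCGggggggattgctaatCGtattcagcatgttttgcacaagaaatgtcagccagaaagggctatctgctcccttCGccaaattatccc
Hoxa10, start farther from Hoxa9: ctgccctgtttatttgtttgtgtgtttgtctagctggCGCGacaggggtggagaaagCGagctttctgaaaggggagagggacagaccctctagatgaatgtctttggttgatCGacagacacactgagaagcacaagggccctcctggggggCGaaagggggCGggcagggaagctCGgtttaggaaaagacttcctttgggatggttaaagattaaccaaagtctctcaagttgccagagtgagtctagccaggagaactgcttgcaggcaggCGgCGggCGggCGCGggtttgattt
Hoxd1: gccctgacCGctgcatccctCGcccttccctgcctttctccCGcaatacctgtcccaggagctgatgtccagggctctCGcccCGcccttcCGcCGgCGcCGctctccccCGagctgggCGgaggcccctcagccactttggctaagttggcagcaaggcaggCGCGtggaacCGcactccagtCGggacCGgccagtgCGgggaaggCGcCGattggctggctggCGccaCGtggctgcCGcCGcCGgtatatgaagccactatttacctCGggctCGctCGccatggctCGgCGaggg
The printed windows held 4 to 29 CpGs. Their genes were picked by their ratios and no window of a gene within 2-fold is printed, so a link between CpGs and ratios was not tested. RefSeq windows matched 19 of the 34 members, with 21 windows in all, and their CpG count ran from 4 to 45 with a median of 15, against a median of 7 over 32841 windows of 27018 genes. The median ratio of observed to expected CpGs was 0.754, against 0.384 over all windows. Searched on both strands, the letters TGATNNAT, a site of Hox proteins bound together with Pbx, were in 4 of the 21 windows (19%), against 8.85% of all windows, and CTTTGAT, the site of the Wnt effectors Tcf and Lef, was in 1 (4.76%), against 3.73%. The E-box CAGCTG of myogenic factors was in 14.3%, against 16.3%, and the nuclear receptor motif AGGTCA in 23.8%, against 16.3%. CCAAT was in 61.9%, against 37.4%, and TATAAA in 14.3%, against 13.6%. The Hox-Pbx, Tcf/Lef, E-box and nuclear receptor letters were in none of the 4 printed windows, and no motif searched contains another. A match is a description of letters, not of binding.

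The number of Hox members with a signal of at least 20 was nearly the same on the 3 arrays, and their share was below that of all probes. This signal of at least 20 was reached by 8 members (23.5%) in C2C12-DF, 9 (26.5%) in C2C12-W4-08 and 9 (26.5%) in C2C12-PR, against 39.5%, 40.0% and 39.2% of all probes. In C2C12-PR these were Hoxa7, Hoxa9, Hoxa10, Hoxa11, Hoxb9, Hoxc6, Hoxc9, Hoxc10 and Hoxc13. All of them but Hoxc10 stayed at or above 20 in C2C12-DF and in C2C12-W4-08, which is 8 of 9, against 94.2% of all such probes in C2C12-DF and 92.8% in C2C12-W4-08, so the Hox members stayed above 20 about as often as other probes did. No member reached 20 in C2C12-DF without doing so in C2C12-PR, and 1 did in C2C12-W4-08, Hoxd1. By cluster, 4 of 10 A members, 1 of 9 B members, 3 of 7 C members and 0 of 8 D members were at or above 20 in C2C12-DF, with 4, 1, 3 and 1 in C2C12-W4-08 and 4, 1, 4 and 0 in C2C12-PR. By position, none of the 6 anterior members with paralog numbers 1 to 3 was at or above 20 in C2C12-DF, 1 was in C2C12-W4-08 and none in C2C12-PR. Of the 15 posterior members with numbers 9 to 13, 6, 6 and 7 were.

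**Figure D1:**
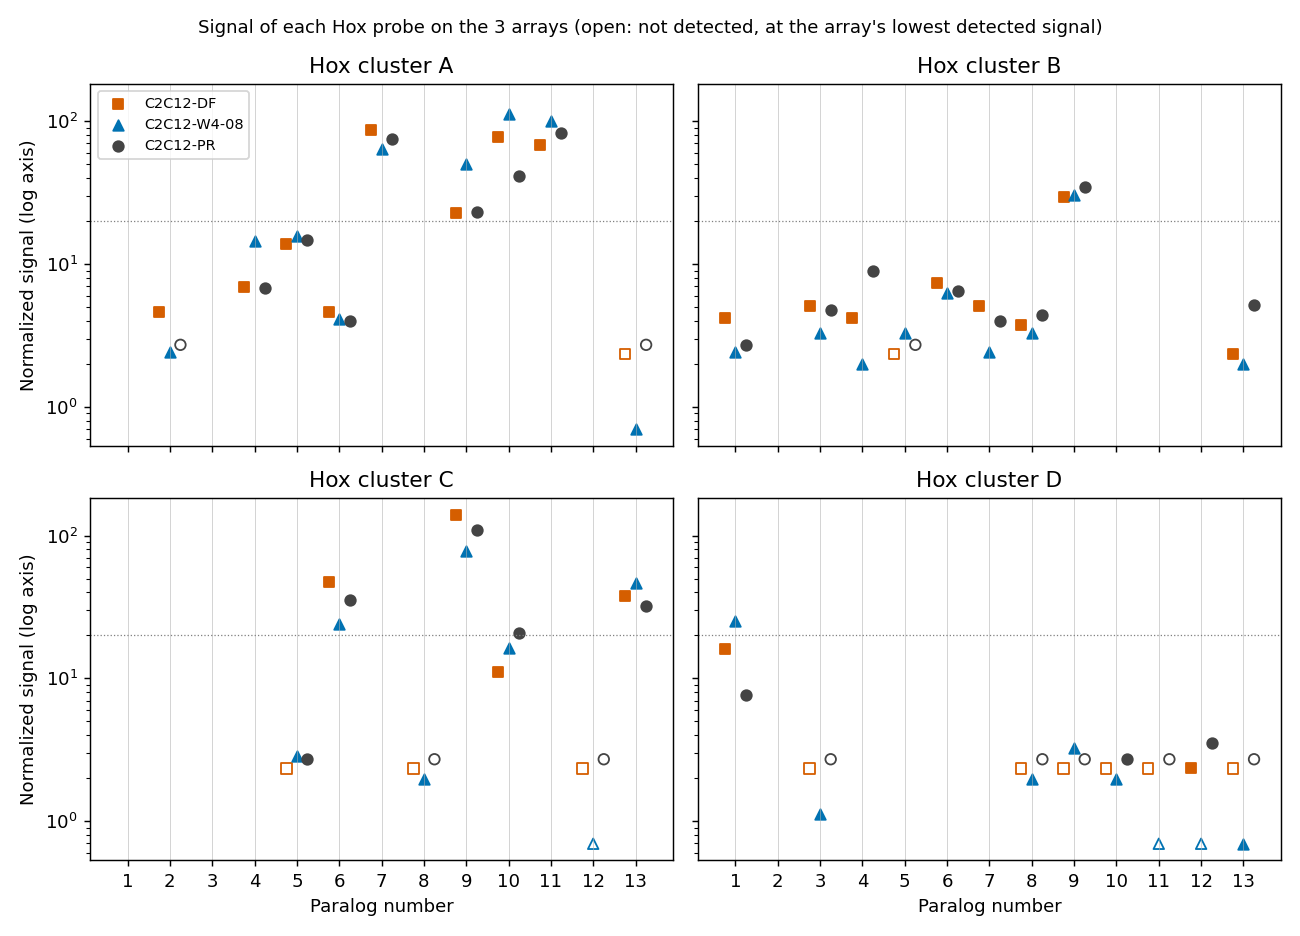
Normalized signal (log axis) of 33 of the 34 Hox probes by paralog number, 1 panel per cluster, in C2C12-DF (squares), C2C12-W4-08 (triangles) and C2C12-PR (circles), with open symbols at the lowest detected signal for probes that were not detected and a dotted line at 20. The A and C cluster probes above the dotted line have paralog numbers 6 to 13 on all 3 arrays, and most D cluster probes lie near the detection limit.

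Detection by itself followed the arrays. Of the 34 members, 22 (64.7%) were detected in C2C12-DF, 31 (91.2%) in C2C12-W4-08 and 24 (70.6%) in C2C12-PR. Over all probes the shares were 74.4%, 92.8% and 71.8%, so the Hox share was lower in C2C12-DF and close on the other arrays. With the limit of C2C12-PR, 2.72, applied to every array, 20, 20 and 24 of the 34 were detected. All probes were then at 71.2%, 72.1% and 71.8%, above the Hox share in C2C12-DF and C2C12-W4-08. The larger number in C2C12-W4-08 thus came with the lower limit of that array. In the D cluster 1 of 8 members passed this common limit in C2C12-DF, 2 in C2C12-W4-08 and 3 in C2C12-PR, whereas 8 of 10 A members did on each array. Hoxc12 and Hoxd11 were not detected on any array.

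Of 21 Hox members detected in both C2C12-DF and C2C12-PR, only Hoxd1 was at least 2-fold higher in C2C12-DF (background 4.91% of all probes compared), and Hoxb4 and Hoxb13 were at least 2-fold lower (background 4.54%). The other 18 lay within 2-fold, and the median log2 ratio was 0.089, against 0 over all probes by the scaling. In C2C12-W4-08, 5 of 23 members compared were at least 2-fold higher than in C2C12-PR (background 8.55%), among them Hoxa4, Hoxa9, Hoxa10 and Hoxd1. Hoxb4 and Hoxb13 were again at least 2-fold lower (background 11.0%), and 16 lay within 2-fold, with a median of -0.17. Both comparisons use the same C2C12-PR array, so a chance deviation of a spot there moves both ratios of a gene the same way. With the CV of the control closest in brightness, whose spot SDs ran from 0.513 to 0.936, none of the 21 ratios of C2C12-DF was 2 spot SDs or more from 0 (background 6.74%). In C2C12-W4-08, 6 of 23 were (background 14.1%), among them Hoxa9, Hoxa10, Hoxb4, Hoxb13 and Hoxd1, whereas Hoxa4 was not. The 9 probes at or above 20 in C2C12-PR had a median of 0.205 in C2C12-DF, with none 2-fold apart (background 8.32%), and of -0.181 in C2C12-W4-08, with Hoxa9 and Hoxa10 higher and none lower (background 13.7%).

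**Figure D2:**
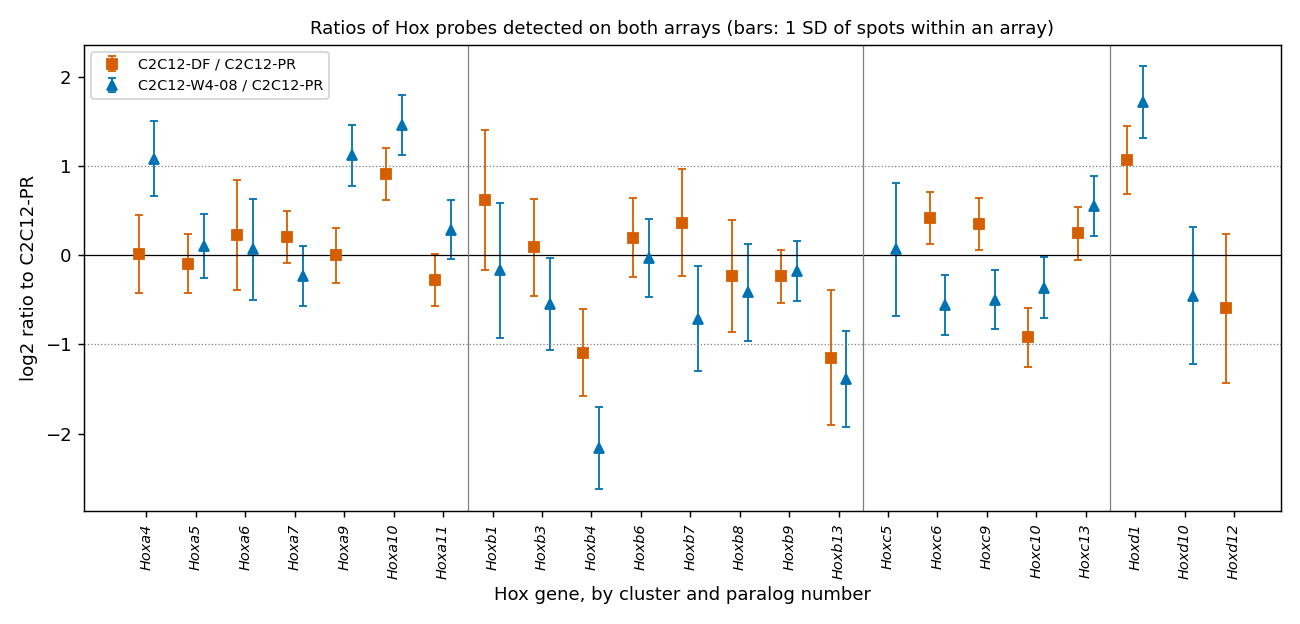
Log2 ratio to C2C12-PR of Hox probes detected on both arrays of a pair, in C2C12-DF (squares) and C2C12-W4-08 (triangles), ordered by cluster (vertical lines) and paralog number, with bars of 1 SD of spots within an array and dotted lines at 2-fold. In C2C12-W4-08, 6 of 7 A cluster probes shown lie above 0 and all 8 B cluster probes compared lie below it. With centred print blocks 6 of these 8 lie below 0, and the B median is 0.039 after normexp.

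In the A cluster the members at least 2-fold higher in C2C12-W4-08, which include Hoxa4, Hoxa9 and Hoxa10, stood among others that were within 2-fold. The cluster had 4 of 8 compared members at least 2-fold higher, none lower (background 8.55% higher and 11.0% lower) and a median log2 ratio of 0.683 in C2C12-W4-08, and none of 7 at least 2-fold apart and a median of 0.014 in C2C12-DF. Hoxa10, which with its paralogs patterns the upper hindlimb and the lumbar region, had a signal of 77.3 in C2C12-DF, 113 in C2C12-W4-08 and 41.1 in C2C12-PR. It was thus highest in C2C12-W4-08, with log2 ratios to C2C12-PR of 0.91 ± 0.29 for C2C12-DF and 1.46 ± 0.33 for C2C12-W4-08 (spot SD). Hoxa9, a regulator of blood stem cells as well as of axial identity, had 22.9 in C2C12-DF, 49.8 in C2C12-W4-08 and 22.9 in C2C12-PR, log2 ratios to C2C12-PR of 0.00 ± 0.31 for C2C12-DF and 1.12 ± 0.34 for C2C12-W4-08. C2C12-W4-08 alone stood apart for this gene. The Hoxa9 and Hoxa10 spots lie in the same print block of the array, whose median log2 ratio in C2C12-W4-08 was 0.38, and after centring of the blocks Hoxa10 was at 1.08 and Hoxa9 at 0.74, short of 2-fold.

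Hoxa11, which patterns the forearm and lower leg, had a signal of 67.7 in C2C12-DF, 99.8 in C2C12-W4-08 and 81.9 in C2C12-PR. Hoxa7, a gene of thoracic identity, had 86.8 in C2C12-DF, 64.0 in C2C12-W4-08 and 75.3 in C2C12-PR. With the reported setting both differed from C2C12-PR by no more than the spot SD on either array. Their log2 ratios in C2C12-W4-08 were 0.29 ± 0.33 for Hoxa11 and -0.23 ± 0.33 for Hoxa7. There Hoxa7 was lower with centred print blocks (-0.65), with the local background (-0.74) and after normexp (-0.77). Hoxa11 was at 0.42, 0.35 and -0.03 under these settings. Hoxa4, a gene of cervical identity, had 6.92 in C2C12-DF, 14.5 in C2C12-W4-08 and 6.85 in C2C12-PR, log2 ratios to C2C12-PR of 0.01 ± 0.44 for C2C12-DF and 1.08 ± 0.42 for C2C12-W4-08. It was dim, and after centring of the print blocks it was at 0.74 in C2C12-W4-08, short of 2-fold. Hoxa5 (13.8, 15.8 and 14.7 in C2C12-DF, C2C12-W4-08 and C2C12-PR) and Hoxa6 (4.63, 4.14 and 3.96) were nearly level. Hoxa2 was not detected in C2C12-PR, and Hoxa13, the gene of the most distal limb, was detected only in C2C12-W4-08, at 0.697, the lowest signal detectable there.

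In the B cluster a single member, Hoxb9, was above the dim range. With the reported setting all 8 compared had a negative log2 ratio in C2C12-W4-08, 2 of them at least 2-fold (background 11.0%). Their median was -0.479, or 0.039 after normexp, against 0 over all probes by the scaling. With centred print blocks 6 of 8 were negative, and after normexp 3 of 8. The members within 2-fold lay at most 1.2 spot SDs from 0. In C2C12-DF 4 of 8 were negative and the median was -0.073. Hoxb9, which acts with the other members of its paralog group in the thoracic skeleton, had a signal of 29.3 in C2C12-DF, 30.4 in C2C12-W4-08 and 34.5 in C2C12-PR. Its ratios of -0.24 ± 0.30 and -0.18 ± 0.34 were within the spot SD. Hoxb4, known for its role in the expansion of blood stem cells, had 4.18 in C2C12-DF, 1.99 in C2C12-W4-08 and 8.91 in C2C12-PR, log2 ratios to C2C12-PR of -1.09 ± 0.49 for C2C12-DF and -2.16 ± 0.46 for C2C12-W4-08. Hoxb13, a gene of the tail end and the prostate, had 2.35 in C2C12-DF, 1.99 in C2C12-W4-08 and 5.20 in C2C12-PR, log2 ratios of -1.15 ± 0.75 and -1.39 ± 0.54. Both were lower on both arrays than in C2C12-PR, at signals near the detection limit, and after a normexp background correction, which adds an offset of 50, the Hoxb4 ratio in C2C12-W4-08 was 0.094 and the Hoxb13 ratio in C2C12-DF was 0.114.

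The remaining B members were dim on every array. Hoxb1, Hoxb3, Hoxb6, Hoxb7 and Hoxb8 had signals of 3.72 to 7.37 in C2C12-DF, 2.42 to 6.30 in C2C12-W4-08 and 2.72 to 6.44 in C2C12-PR. All were within 2-fold with the reported setting, but Hoxb7 was at -1.005 in C2C12-W4-08 with centred print blocks. Hoxb5 was detected only in C2C12-W4-08, at 3.28. Of the 8 compared B members, 7 had a signal under 10 in C2C12-PR. Over all probes of that brightness the median log2 ratio in C2C12-W4-08 was 0.064, with 16.1% at least 2-fold lower and 14.4% at least 2-fold higher, so 2-fold ratios were more frequent there than among probes at or above 20, of which 8.58% were lower and 5.14% higher.

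The medians of the A and B clusters were set side by side. The difference between the A and the B median was 1.16 in C2C12-W4-08 and 0.087 in C2C12-DF on the log2 scale. In C2C12-W4-08 it was positive in each of 11 other ways of processing for which both medians could be taken, from 0.106 after normexp to 1.24 with the local background of each spot. A scaling that moves all probes of an array alike cannot change this difference. It was therefore 1.16 again with scaling to the 75th percentile, and 0.492 in the deposited table both with and without scaling. Such repeats are no separate checks among the 11, here or relative to all probes. Relative to the median of all probes under the same setting, the A median was above it in all 11 and the B median below it in 10, with the exception of normexp, where the B median was at 0.039. Scaling to the 75th percentile and the deposited table without scaling moved the median of all probes in C2C12-W4-08 to 0.56 and 0.566, and relative to it the B median then stood at -0.479 and -0.223. In C2C12-DF the difference ran from -0.089 to 0.273. The clusters were compared after their values had been seen, and no test was made.

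In the C cluster, with the reported setting, the 5 members compared in C2C12-W4-08 were within 2-fold of C2C12-PR, with a median log2 ratio of -0.365, and so did the 4 compared in C2C12-DF, with a median of 0.299. Hoxc9, a thoracic gene that also sets the identity of spinal motor neurons, had a signal of 140 in C2C12-DF, 77.8 in C2C12-W4-08 and 110 in C2C12-PR. Hoxc6, which is used at the level of the forelimb, had 47.1 in C2C12-DF, 23.96 in C2C12-W4-08 and 35.3 in C2C12-PR. Both were highest in C2C12-DF and lowest in C2C12-W4-08, with log2 ratios of 0.35 ± 0.29 and -0.50 ± 0.33 for Hoxc9 and of 0.42 ± 0.30 and -0.56 ± 0.34 for Hoxc6. With the local background Hoxc9 was above C2C12-PR on both arrays, at 1.19 in C2C12-DF and 0.709 in C2C12-W4-08, whereas Hoxc6 kept its order. Hoxc10, a hindlimb and lumbar gene, had 11.0 in C2C12-DF, 16.2 in C2C12-W4-08 and 20.9 in C2C12-PR, log2 ratios of -0.92 ± 0.33 and -0.37 ± 0.34. The ratio was short of 2-fold in C2C12-DF but -1.04 with centred print blocks, and in C2C12-W4-08 it was -1.42 with the local background. Hoxc13, best known from hair and nails, had 38.0 in C2C12-DF, 46.8 in C2C12-W4-08 and 32.0 in C2C12-PR, log2 ratios of 0.25 ± 0.30 and 0.55 ± 0.34. Hoxc5 and Hoxc8 had signals of at most 2.85 wherever they were detected.

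The D cluster was near the detection limit except at its anterior end. Hoxd1, which in the mouse is needed for the wiring of pain-sensing neurons, had a signal of 16.1 in C2C12-DF, 25.3 in C2C12-W4-08 and 7.67 in C2C12-PR. It was higher on both arrays than in C2C12-PR, with log2 ratios to C2C12-PR of 1.07 ± 0.38 for C2C12-DF and 1.72 ± 0.40, or 3.29-fold, for C2C12-W4-08. After centring of the print blocks these were 0.96 and 1.48. The other 7 D members, which include the genes of distal limb patterning Hoxd9 to Hoxd13, had signals of at most 3.55 where they were detected. Of these, Hoxd12 was not detected in C2C12-W4-08 and had 2.35 in C2C12-DF and 3.55 in C2C12-PR, and was thus at least 5.09-fold lower in C2C12-W4-08, but 100% of the 177 probes detected in C2C12-PR and not in C2C12-W4-08 were at least 2-fold lower by this bound. Hoxd10 was within 2-fold in C2C12-W4-08, and the others gave no ratio there.

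**Figure D3:**
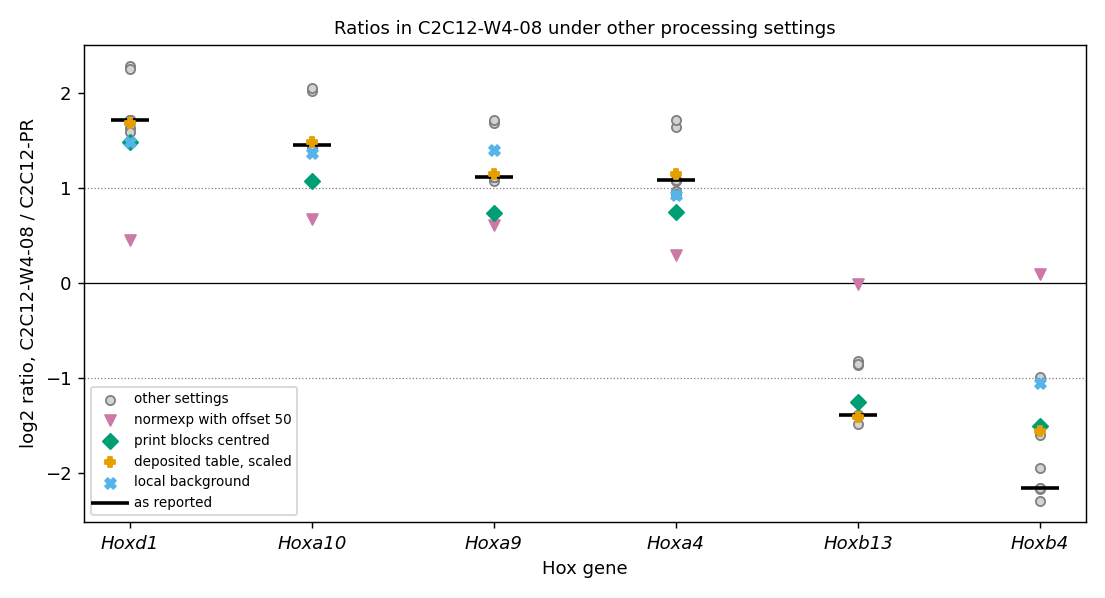
Log2 ratio of C2C12-W4-08 to C2C12-PR for 6 Hox probes at least 2-fold apart, as reported (bars) and under the other processing settings (symbols), with dotted lines at 2-fold. Hoxa10 and Hoxd1 stay above 0 under all settings, at 0.668 and 0.455 after normexp, and the Hoxb4 ratio is 0.094 after normexp.

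Of the alternatives, 6 can change the ratio of a single probe relative to the others: quantile normalization, loess, normexp, the local background, centred print blocks and the scaled deposited table. Under these the ratio in C2C12-W4-08 ran from 0.668 to 1.48 for Hoxa10 and from 0.455 to 1.69 for Hoxd1, each at least 2-fold in 5 of 6, with normexp as the exception. That of Hoxa9 ran from 0.613 to 1.40 and was at least 2-fold in 4 of 6, and that of Hoxa4 ran from 0.296 to 1.15 and was so in 1 of 6. Hoxb4 ran from -2.29 to 0.094 and was at least 2-fold lower in 5 of 6, and Hoxb13 ran from -1.48 to -0.012 and was so in 3 of 5. In C2C12-DF, Hoxd1 was at least 2-fold higher in 3 of 6, Hoxb4 lower in 2 of 5 and Hoxb13 lower in 3 of 6. After normexp, which adds an offset of 50, no compared Hox member was 2-fold apart on either array.

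Of 16 genes that flank the clusters, 2 at each end, 15 were compared in C2C12-DF. There 1 was at least 2-fold higher (background 4.91%) and 2 were lower (4.54%). For C2C12-W4-08 the 16 gave 1 higher (background 8.55%) and 1 lower (11.0%). The flanking genes beside the B cluster were within 2-fold wherever they were compared. Evx1, the homeobox gene next to Hoxa13, had a signal of 27.5 in C2C12-DF, 22.7 in C2C12-W4-08 and 16.3 in C2C12-PR, within 2-fold. Skap2, an adaptor gene on the other side of the A cluster, had 255 in C2C12-DF, 211 in C2C12-W4-08 and 163 in C2C12-PR, log2 ratios of 0.64 and 0.37. The flanking genes of the A cluster were thus within 2-fold on both arrays. Evx2, next to Hoxd13, was at 2.35, 2.42 and 5.20 on these arrays, log2 ratios of -1.15 and -1.10 near the detection limit. Lnpk, a gene of the endoplasmic reticulum that lies next to Evx2, was at 26.6, 67.9 and 55.5, log2 ratios of -1.06 and 0.29, past 2-fold in C2C12-DF only. Mtx2, a mitochondrial import gene next to Hoxd1, was at 300.1, 240.3 and 225.5, log2 ratios of 0.41 and 0.09, so the Hoxd1 ratios had no counterpart in this neighbour. Cbx5, the gene of heterochromatin protein HP1 alpha, lies the second gene beyond the C cluster and was at 24.3, 29.6 and 9.74, log2 ratios of 1.32 and 1.60. Smug1, a DNA repair gene between it and the C cluster, was at 0.09 and 0.15.

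Genes of related homeobox families were mostly within 2-fold. There were 14 such genes on the array, which include Evx, Cdx, Gbx, Meox and En genes. In C2C12-DF 8 were compared, with 0 higher (background 4.91%), 1 lower (4.54%) and a median log2 ratio of -0.202. In C2C12-W4-08 9 were compared, with 0 higher (background 8.55%), 2 lower (11.0%) and a median of -0.054. The lower ones were dim, Evx2 in both and Pdx1, a pancreatic factor, in C2C12-W4-08, and both were named after their values were seen. The Cdx genes, direct activators of Hox genes in the embryo, were close to level, with Cdx2 at 33.0 in C2C12-DF, 26.1 in C2C12-W4-08 and 33.3 in C2C12-PR, and Cdx1 at 18.3, 24.8 and 22.1.

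The cofactors that bind DNA together with Hox proteins are the Pbx, Meis and Pknox homeodomain proteins. Their median log2 ratio was 0.642 over 7 compared genes in C2C12-W4-08, with 1 at least 2-fold higher (background 8.55%) and none lower (11.0%). It was 0.146 over 6 in C2C12-DF, with none 2-fold apart (background 4.91% higher and 4.54% lower). The one past 2-fold, Pbx2, was named after its values were seen, and was dim (7.83 in C2C12-DF, 12.8 in C2C12-W4-08 and 4.79 in C2C12-PR). The median in C2C12-W4-08 was -0.054 with the local background and -0.142 over the 3 genes with a signal of at least 20, so its sign depends on the setting and on few genes. Pbx4 had 58.1 in C2C12-DF, 80.8 in C2C12-W4-08 and 51.8 in C2C12-PR, a log2 ratio of 0.64 in C2C12-W4-08. Meis3, carried on the array as Mrg2, ran the other way with 39.3, 27.0 and 50.6, a log2 ratio of -0.91 in C2C12-W4-08, and Pknox1 was at -0.14 in both.

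Of 29 compared genes of the Polycomb complexes, which keep Hox genes silent, 1 was at least 2-fold higher and 2 lower in C2C12-DF, with a median log2 ratio of -0.118, and 2 were higher and 2 lower in C2C12-W4-08, with a median of 0.107. The background is 4.91% higher and 4.54% lower for C2C12-DF, with 8.55% and 11.0% for C2C12-W4-08, so these counts are near it and the genes are given as values. In C2C12-DF, Ezh1 and Ezh2, the alternative H3K27 methyltransferases of the complex, ran in opposite directions. Ezh1 had 58.1 in C2C12-DF, 26.6 in C2C12-W4-08 and 28.7 in C2C12-PR, log2 ratios to C2C12-PR of 1.02 for C2C12-DF and -0.11 for C2C12-W4-08. Ezh2 had 99.2 in C2C12-DF, 245 in C2C12-W4-08 and 180.5 in C2C12-PR, log2 ratios of -0.86 and 0.44. The core subunit gene Suz12 was at -0.72 for C2C12-DF and 0.01 for C2C12-W4-08, and Scmh1 at -0.71 and 0.84, whereas the reader gene Cbx7 was positive on both, at 0.78 and 0.66. In C2C12-W4-08 the PRC1 gene Pcgf5 was at 1.21 and Mtf2 at 0.52, and on the lower side the histone-binding gene Rbbp7 was at -1.17 and Eed, a core PRC2 subunit, at -0.96. The remaining genes past 2-fold were dim and were named after their values were seen, Phf19 at -1.09 and Pcgf2 at -1.06 in C2C12-DF and Rybp at 1.20 and Jarid2 at -1.95 in C2C12-W4-08.

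Genes of the trithorax group and other activators of Hox chromatin gave 15 compared genes. In C2C12-DF 0 were at least 2-fold higher and 1 lower (background 4.91% and 4.54%), with a median log2 ratio of -0.095. In C2C12-W4-08 3 were higher and 2 lower (background 8.55% and 11.0%), with a median of 0.182. That median was -0.211 with centred print blocks and -0.884 over the 4 genes with a signal of at least 100. Kdm6b, a demethylase that removes the Polycomb mark, had 32.0 in C2C12-DF, 45.1 in C2C12-W4-08 and 22.1 in C2C12-PR, a log2 ratio of 1.03 in C2C12-W4-08. Dot1l, the H3K79 methyltransferase, had 48.5, 107 and 53.5, a log2 ratio of 1.003 in C2C12-W4-08. Both lay at the 2-fold mark, and Kmt2a, the MLL1 methyltransferase that maintains Hox transcription, was at 0.78 in C2C12-DF and 0.59 in C2C12-W4-08. On the lower side Ash2l, a core subunit of the MLL complexes, was at -0.49 for C2C12-DF and -1.38 for C2C12-W4-08, and the complex gene Hcfc1 at -1.02 and -1.34. Ash1l, named after its values were seen, was dim and at 1.14 in C2C12-W4-08.

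Retinoic acid is a known activator of anterior Hox genes. Of its receptors, enzymes and carriers 11 were compared in C2C12-DF, with 2 at least 2-fold higher (background 4.91%), none lower (4.54%) and a median log2 ratio of 0.222. In C2C12-W4-08, 12 were compared, with 1 higher (background 8.55%), 1 lower (11.0%) and a median of -0.03. Rarb, the receptor gene that retinoic acid itself induces, was dim and named after its values were seen, at 1.14 in C2C12-DF and 0.06 in C2C12-W4-08. Crabp2, a carrier that brings retinoic acid to the nucleus, was at 0.58 and 0.51. The receptor genes Rara and Rarg were below 0 on both arrays, with Rara at -0.51 for C2C12-DF and -0.89 for C2C12-W4-08 and Rarg at -0.41 and -0.70. Past 2-fold in C2C12-W4-08 were the dim genes Aldh1a2, an enzyme that makes retinoic acid, at 1.11 and Crabp1 at -2.78, both named after their values were seen.

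**Figure D4:**
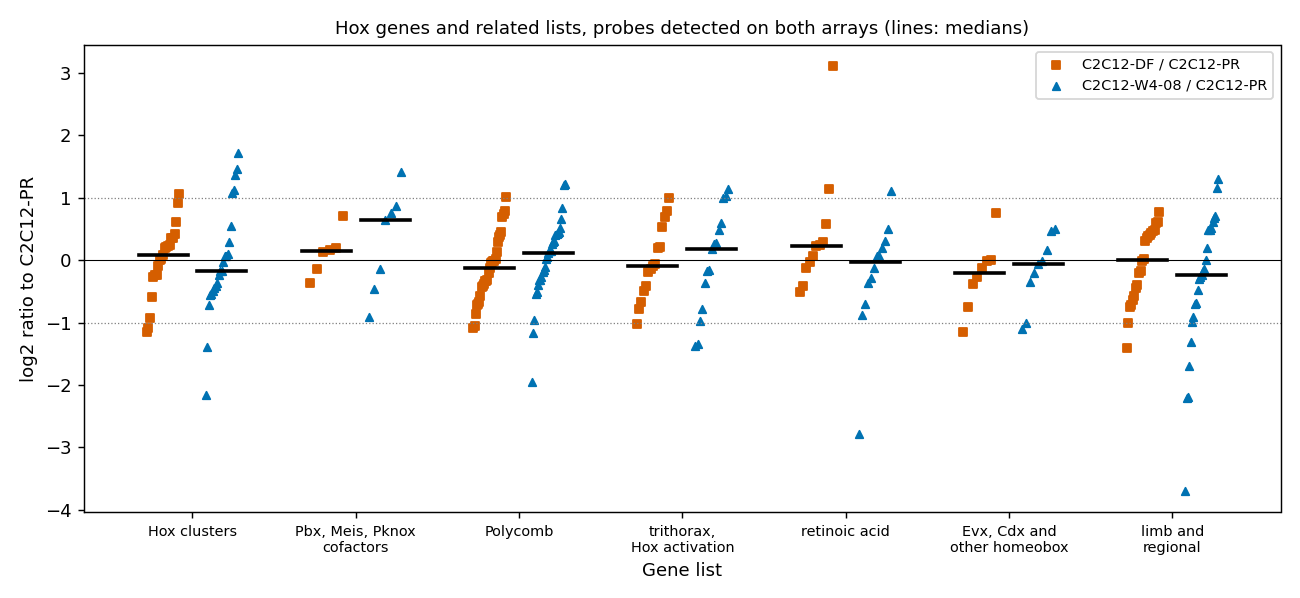
Log2 ratio to C2C12-PR of every compared gene of the Hox clusters and of 6 related lists, in C2C12-DF (squares, left) and C2C12-W4-08 (triangles, right), with horizontal bars at the medians and dotted lines at 2-fold. The medians run from -0.202 to 0.222 in C2C12-DF and from -0.237 to 0.642 in C2C12-W4-08, where all probes have a median of 0.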

How the data were processed

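Total RNA of 3 cultures was hybridized to 1-colour mouse oligonucleotide arrays, 1 per condition. The authors deposited the raw spot intensities of each scan, not yet background-corrected. The authors' table of processed signals was used as an alternative only: each of its columns has a median of 25.0 and runs with the brightness of its array on a linear scale with no centring, whereas the background behind it is not given in the sources used here. The labels name the miRNeasy kit for extraction and the methods name Isogen.

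Each spot median was reduced by the blank mean of its array, with the detection rule and scaling given above. Where 1 array of a pair missed the limit, its lowest detected signal gave a bound. Precision is limited by the number of arrays, and no p-value was computed. The members and the gene lists were chosen with earlier results of these data known. Members at least 2-fold apart in either comparison or with a signal of at least 20 on any array are named, except that a few results are not reported here, and of each list up to 4 genes that follow its main direction and 2 that oppose it, those farthest from 0 with a signal of at least 20 on 1 array. Genes were matched to RefSeq by symbol, for names, order and promoter windows (GRCm38.p6). A gene with several probes entered its list by the brightest.

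Alternatives were quantile, 75th percentile and loess scaling, normexp with an offset of 50, local background, spot means, other detection limits, minimum signals of 20 and 100, centred print blocks, the deposited table with and without scaling, gene means over probes, and thresholds of 1.5-fold and 4-fold. Values came from Python 3.11.15 with numpy 2.4.6, pandas 2.3.3 and statsmodels 0.14.6, and from limma 3.58.1 in R 4.3.3 for normexp. The steps were tested on simulated data. Changes were set only in probes more than 20 scanner units above the blank mean in C2C12-PR, and no print block differences were simulated. Changes of dimmer probes, which include most B and D members, were thus not covered.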

Additional observations from a re-analysis of the deposited data

How the results depend on the processing

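Each condition has 1 array, so no result could be checked by leaving one out, and no paired analysis was possible because each condition has 1 array. Of 119 values of the Hox counts and medians under other settings, 71 stayed within the range set for no change and 48 moved. Of 526 values of the named ratios and the list medians, 443 stayed, 81 moved and 2 that were past 2-fold changed sign. These were the Hoxb13 ratio in C2C12-DF at 0.114 and the Hoxb4 ratio in C2C12-W4-08 at 0.094, both after normexp. With the local background these ratios were -0.025 and -1.054. The normexp offset of 50 is larger than the signals of these probes, but its part in the sign changes was not tested. Many of the values that stayed could not move. A named Hox ratio is the same by construction with no detection rule, the common limit, minimum signals and gene means over probes. Detection at the blank mean plus 3 SD changes it only by a common scaling. The tally is thus no count of separate checks. The share of all probes called is not given for each setting, so the counts below do not by themselves describe the Hox members. Of all probes 2-fold apart in C2C12-W4-08, 43.6% were higher as reported, 85.1% in the unscaled deposited table and 23.3% with no detection rule. The Hox counts at least 2-fold higher and lower are given here as higher and lower. In C2C12-DF they were 0 and 2 after quantile normalization, 0 and 0 after normexp, 2 and 0 with the local background, 1 and 1 with detection at the blank mean plus 3 SD and with the common limit, 0 and 0 with minimum signals of 20 and of 100, 0 and 2 with centred print blocks, 2 and 1 in the deposited table with or without scaling, 3 and 4 at 1.5-fold and 0 and 0 at 4-fold. In C2C12-W4-08 they were 1 lower with scaling to the 75th percentile and with loess, 0 and 0 after normexp, 3 and 5 with the local background, 8 lower with no detection rule, 0 lower with the common limit, 3 and 0 with a minimum signal of 20, 1 and 0 with one of 100, 2 higher with centred print blocks, 9 and 0 in the deposited table without scaling, and 0 and 1 at 4-fold. The Hox median in C2C12-W4-08 was 0.39 with scaling to the 75th percentile, 0.479 with a minimum signal of 100, which left 2 probes, and 0.596 in the deposited table without scaling, each above 0 where the reported median was -0.17. The 75th percentile and the missing scaling moved the median of all probes in C2C12-W4-08 as well, by 0.56 and 0.566, so that relative to all probes the Hox median moved less. With the common limit 20 members were detected in C2C12-W4-08. With spot means 13 were detected in C2C12-DF, 16 in C2C12-W4-08 and 2 in C2C12-PR, where the SD of the blank spots was 6.20, 4.59 and 86.3 scanner units, against 2.16, 0.803 and 2.95 for the spot medians, and all 4 counts were 0. The other causes of these moves were not tested. Detection counts were not rerun for the 75th percentile, normexp and loess. Most B and D cluster signals lie close to the blank spots, which limits their ratios.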

Other observations

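Homeobox and T-box genes of limb and regional patterning outside the Hox clusters were read in the same way. Of 31 on the array, 25 were compared in C2C12-W4-08, with 2 at least 2-fold higher, 5 lower and a median log2 ratio of -0.237. In C2C12-DF 22 were compared, with 0 higher, 1 lower and a median of 0.001. Over all probes compared, 8.55% were higher and 11.0% lower in C2C12-W4-08, with 4.91% and 4.54% in C2C12-DF. For these genes the median was 0.013 in the scaled deposited table, so its direction depends on the source of the values.

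Msx1, a transcriptional repressor that holds back myogenesis, was at 22.9 in C2C12-DF, 6.73 in C2C12-W4-08 and 31.2 in C2C12-PR, log2 ratios of -0.45 and -2.21. Prrx2, a limb mesenchyme gene, had 169 in C2C12-DF, 89.0 in C2C12-W4-08 and 222 in C2C12-PR, log2 ratios of -0.40 and -1.32. Dlx3, a gene of the distal-less family, had 16.1 in C2C12-DF, 3.28 in C2C12-W4-08 and 42.7 in C2C12-PR, and was lower on both arrays. The other 2 that were lower in C2C12-W4-08, Irx3 at -2.19 and Msx2 at -1.69, and the hindlimb gene Tbx4, higher at 1.30, were dim and were named after their values were seen. The hindlimb gene Pitx1, with 31.6 in C2C12-DF, 40.3 in C2C12-W4-08 and 24.6 in C2C12-PR, and the limb gene Prrx1, with 16.5, 41.2 and 25.8, were within 2-fold.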
